A study of Homo sapiens with 4 samples.

Results

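The control siRNA library and the empty vector library, the 2 control libraries among the 4 of the series, were compared gene by gene. The comparison asks which expression programs set the 2 unperturbed states apart. Genes were kept where both tables listed them and their mean depth-scaled count was at least 20, which left 12012 of the 15903 genes listed in both (75.5%) and of the 17961 listed in any table. Below, a gene that met this minimum is called measured.

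All 4 libraries were total RNA of cells labelled HepG2, a human line from a liver tumour. The groups were cells transfected with empty vector, cells transfected with FLAG-tagged JFK (an older name of FBXO42, an F-box protein of a ubiquitin ligase), cells treated with control siRNA, and cells treated with siRNA against ING5, a subunit of histone acetyltransferase complexes. Each group held 1 library, so no difference has a replicate check and no p-value is given. The labels name no dose, time after transfection, passage or batch.

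The comparison has a confound that these files cannot resolve. The vector library received a plasmid and the control library an siRNA. The vector table and that of the library labelled JFK hold expected counts and FPKM, whereas both siRNA tables hold whole counts and RPKM. Reagent, counting method and any difference in culture, library preparation or sequencing date therefore coincide, and their parts in every difference below cannot be told apart. The second plasmid and siRNA pair, ING5 siRNA over the library labelled JFK, shares no library with the first and was set beside it. It shares the same confound, and differs further by the JFK plasmid and the ING5 siRNA.

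Throughout, plasmid libraries means vector and then the library labelled JFK, and siRNA libraries means control siRNA and then ING5 siRNA, with values in that order. CPM values are scaled by library total. The log2 ratio is control siRNA over vector from counts normalised by TMM, a trimmed mean of log ratios, with 0.5 added. It lies 0.17 above the log2 ratio of the CPM values. Each ratio is given with its exact 95% interval by the Clopper-Pearson method. These intervals hold counting error alone, and without molecular identifiers the reads are not independent molecules. A gene called 2-fold higher or lower differed by 2-fold or more.

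Between 7133185 and 9195848 counts fell in the genes listed in both tables, so that 3 counts correspond to 0.326 to 0.421 CPM, the count scaled to a common library size. FBXO42 had 116 and 115 counts in the plasmid libraries and 115 and 97 in the siRNA libraries, so its transcript was not higher in the library labelled JFK. ING5 stood at 25.4 and 20.3 CPM in the plasmid libraries and 15.7 and 8.97 CPM in the siRNA libraries, lowest where the siRNA was directed at it. The liver label was read against 25 secreted hepatocyte proteins. Of these, 17 were unlisted or had at most 3 counts in every library, among them ALB, AFP, APOA1, APOB, TF and TTR, and 3 were measured. The list's summed level was 314 and 377 CPM in the plasmid libraries and 52.4 and 68.1 CPM in the siRNA libraries, led in every library by VTN, for the adhesion protein vitronectin. The cells are therefore called by their label only.

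Background helps in reading the programs that follow. Cells that sense foreign nucleic acid in the cytosol secrete type I interferon, which acts through factors such as IRF9 on promoters carrying the interferon-stimulated response element and so raises antiviral proteins and MHC class I presentation. Cells short of oxygen stabilise the HIF transcription factors, which bind the hypoxia response element and raise genes of glucose use, pH control and mitophagy.

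The 2 controls lay far apart. Control siRNA was 2-fold higher for 1905 genes (15.9% of those measured) and 2-fold lower for 2108 (17.5%). With scaling by total counts in place of TMM these were 1370 and 2575 genes. The tail was longer on the lower side: 706 genes were at least 4-fold lower and 182 at least 4-fold higher, and at 8-fold the numbers were 334 and 17. The middle of the distribution was broad as well, with the 25th and 75th percentiles at −0.69 and 0.72.

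In the second pair 2388 genes were 2-fold higher (19.9%) and 2505 2-fold lower (20.9%). Of the 1905 genes higher in control siRNA, 1679 (88.1%) were also 2-fold higher there and 0 were 2-fold lower. Of the 2108 lower ones, 1884 (89.4%) were also 2-fold lower and 1 was 2-fold higher. Within a reagent the libraries lay much closer. Between the library labelled JFK and vector 80 of the same genes were 2-fold apart (0.666%), and between ING5 siRNA and control siRNA 285 (2.37%). Each of these last comparisons shares a library with the first.

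**Figure D1:**
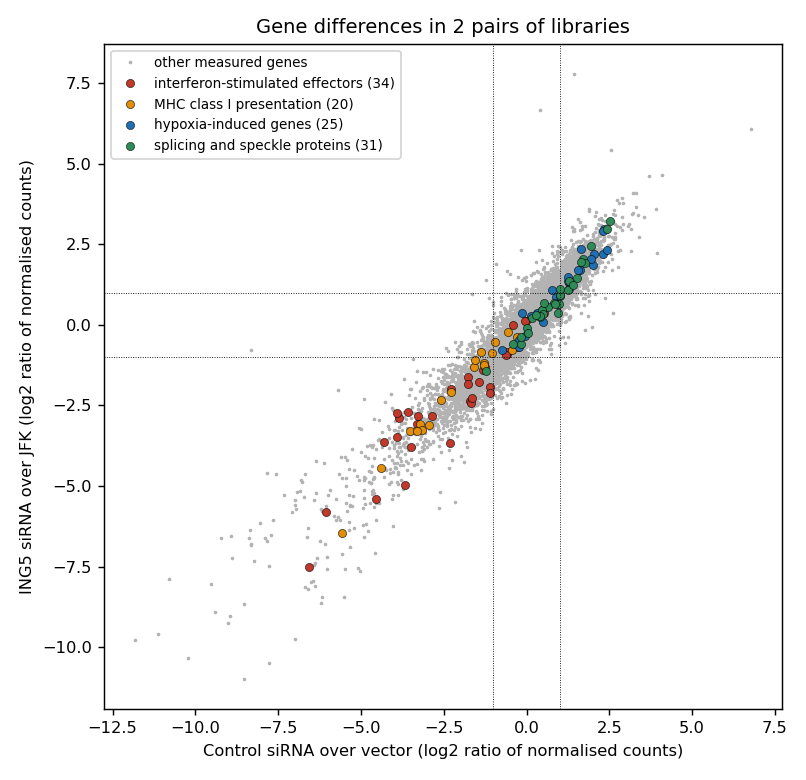
Each point is a gene measured between control siRNA and vector, plotted by its log2 ratio there (x axis) against its log2 ratio between ING5 siRNA and the library labelled JFK (y axis), with dotted lines at 2-fold and 4 gene lists in colour. Interferon-stimulated and MHC class I genes lie at the lower left, with medians of −1.74 and −1.57 on the x axis, and hypoxia-induced genes at the upper right, with a median of 1.25.

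Antiviral effectors of the interferon response formed the list of more than 5 measured members that stood farthest below vector. Of 36 such genes, 34 were measured; 25 of the 34 were 2-fold lower in control siRNA, against 17.5% of all measured genes, and 0 were 2-fold higher. The median log2 ratio was −1.74 and that of all measured genes 0.05. In the second pair the median was −2.20, again with 25 members 2-fold lower (20.9% of all genes there). In 30 of the 34, both siRNA libraries lay below both plasmid libraries in CPM, a pattern seen in 46.9% of all measured genes. Since these are bulk libraries, fewer cells making a transcript and less of it per cell cannot be told apart.

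IFI27, a small mitochondrial interferon-induced protein, had 1615 and 1667 counts in the plasmid libraries and 19 and 10 in the siRNA libraries. Both siRNA libraries were near the floor of counting while both plasmid libraries were well above it, and the log2 ratio was −6.57, interval −7.34 to −5.96. IFI6, which blocks apoptosis and the replication of flaviviruses, stood at 2012 and 1977 CPM in the plasmid libraries and 26.6 and 32.01 CPM in the siRNA libraries. Its log2 ratio was −6.07, interval −6.26 to −5.89. ISG15, a ubiquitin-like modifier joined to proteins during infection, stood at 1551 and 1662 CPM in the plasmid libraries and 58.7 and 35.8 CPM in the siRNA libraries, a log2 ratio of −4.55, interval −4.68 to −4.43. MX2, a dynamin-like GTPase that restricts HIV, stood at 87.7 and 50.9 CPM in the plasmid libraries and 3.91 and 3.65 CPM in the siRNA libraries and differed by −4.30. For each of these 4 genes both siRNA libraries lay below both plasmid libraries, as in 46.9% of all measured genes.

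The list was not uniform. IFITM2, which hinders virus entry at the endosome, stood at 116 and 109 CPM in the plasmid libraries and 147 and 127 CPM in the siRNA libraries. It was higher in both siRNA libraries, with a log2 ratio of 0.52, interval 0.39 to 0.65. Its neighbours in the family IFITM1 and IFITM3, named after their values were seen, stood at −3.29 and −1.76. Genes of this family are close copies, so the plasmid and siRNA tables may divide shared reads among them differently. EIF2AK2, the RNA-activated kinase PKR, lay at 0.46, interval 0.32 to 0.61, and at −0.38 with centring by GC content and length, a step described further on. IFIT5 and TRIM5, which bind viral RNA and retroviral capsids, lay at −0.03, interval −0.24 to 0.18, and −0.06, interval −0.36 to 0.24. The 4 members that stood highest thus ranged from −0.06 to 0.52, against −6.57 to −4.30 for the 4 lowest.

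**Figure D2:**
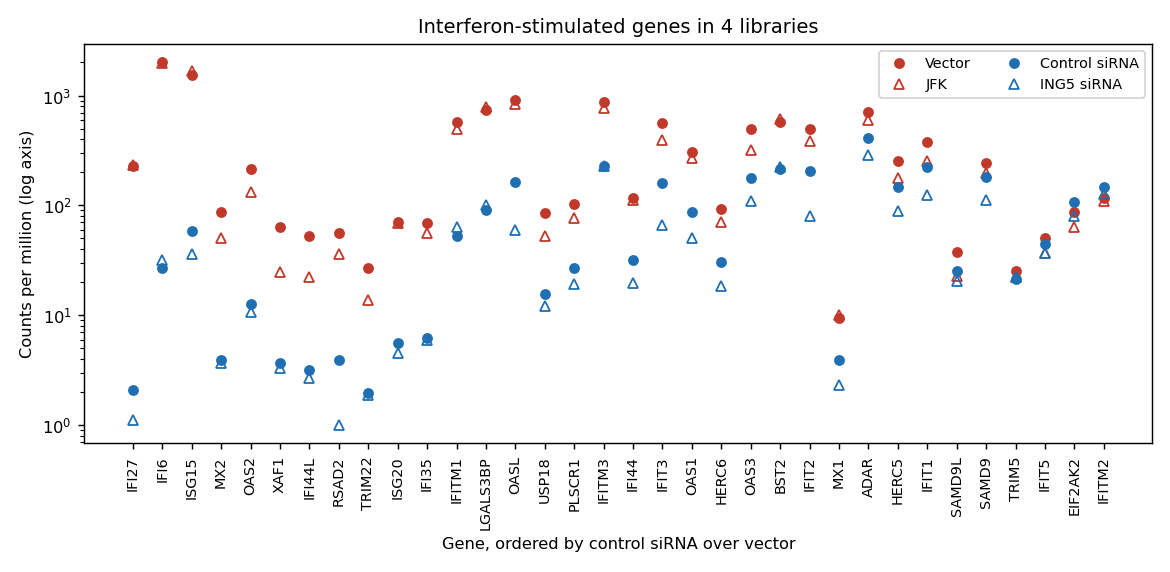
CPM (log axis) of the 34 measured interferon-stimulated effectors in the 4 libraries, 1 point per library, ordered by the log2 ratio of control siRNA over vector. For IFI27 the siRNA libraries sit far below the plasmid libraries, and at the right end IFITM2 lies slightly above them.

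The promoters of these genes show the letters that the interferon factors read. Promoter sequence from RefSeq (build GRCh38.p14), 250 bases before the start of transcription, was on hand for 27 of the 34 measured members. The core GAAANNGAAA was searched on both strands, with overlapping matches merged. It stood in 18 of the 27 promoters (66.7%) and in 217 of the 9674 promoters of measured genes (2.24%). Stretches of at most 70 bases are printed for 4 members far below vector and for 2 that did not differ beyond counting error, 5′ to 3′ on the strand of the gene, with the core in capitals; TTTCNNTTTC is the core on the other strand.
ISG15, chr1:1013354-1013423, plus strand: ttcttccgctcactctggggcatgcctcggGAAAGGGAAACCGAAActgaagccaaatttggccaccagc
IFI6, chr1:27672309-27672378, minus strand: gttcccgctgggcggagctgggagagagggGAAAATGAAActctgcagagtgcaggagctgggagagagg
IFI27, chr14:94110598-94110667, plus strand: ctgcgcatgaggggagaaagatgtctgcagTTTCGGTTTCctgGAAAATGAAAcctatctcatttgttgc
IFI44L, chr1:78620254-78620323, plus strand: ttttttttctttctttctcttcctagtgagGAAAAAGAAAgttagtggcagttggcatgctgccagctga
IFIT5, chr10:89414493-89414562, plus strand: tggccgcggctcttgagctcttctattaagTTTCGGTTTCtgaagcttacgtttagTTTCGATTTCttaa
TRIM5, chr11:5685075-5685131, minus strand: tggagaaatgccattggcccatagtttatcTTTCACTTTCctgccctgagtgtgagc

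The core was found in genes far below vector and in genes near it. The printed stretch of ISG15 holds overlapping cores in 1 run, that of IFI27 holds a core on each strand, and IFIT5, at −0.03, also holds more than 1. Members with the core had a median log2 ratio of −1.74 and members without it −1.43. Over all measured genes the medians were −0.17 with the core and 0.09 without. A match describes these letters only and shows no bound factor.

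MHC class I presentation stood lower together. Of 21 genes 20 were measured, and 15 of these were 2-fold lower in control siRNA (17.5% of all measured genes) and 0 higher. The median was −1.57, and −1.28 in the second pair with 13 members 2-fold lower (20.9% of all genes there). All 20 had both siRNA libraries below both plasmid libraries, against 46.9% of all measured genes. The heavy chains, the peptide pump, the inducible proteasome subunits and the trans-activator NLRC5 were each represented.

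HLA-G, a non-classical heavy chain typical of placenta, had 227 and 273 counts in the plasmid libraries and 5 and 3 in the siRNA libraries, a log2 ratio of −5.56, interval −7.34 to −4.46. HLA-F, a heavy chain seen on activated cells, stood at 73.9 and 86.5 CPM in the plasmid libraries and 3.04 and 3.54 CPM in the siRNA libraries. TAP1, a subunit of the transporter that moves peptides into the endoplasmic reticulum, stood at 364 and 364 CPM in the plasmid libraries and 28.4 and 33.9 CPM in the siRNA libraries and differed by −3.51, interval −3.70 to −3.33. PSMB9, an inducible catalytic subunit of the proteasome, differed by −3.31. Those 4 were the lowest. The classical heavy chains HLA-B and HLA-C, named after their values were seen, lay at −3.20 and −3.15, and the light chain B2M at −1.28. B2M stood at 4721 and 4386 CPM in the plasmid libraries and 1726 and 1755 CPM in the siRNA libraries. Heavy chain genes are close copies, so reads may have been divided differently among them by the counters of the 2 table formats.

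The members nearest 1-fold were 2 general endoplasmic reticulum factors, a proteasome activator subunit and a peptidase. CALR, a chaperone that also folds heavy chains, lay at −0.38, interval −0.41 to −0.34. PDIA3, its disulphide isomerase partner, lay at −0.43, the proteasome activator subunit PSME2 at −0.56, and the peptidase ERAP2 at −0.29, interval −0.94 to 0.34. The core GAAANNGAAA stood in 7 of the 16 members with a promoter (43.8%). It is printed for TAP1 and B2M because they are the pump and the light chain shared by all class I molecules.
TAP1, chr6:32853799-32853868, minus strand: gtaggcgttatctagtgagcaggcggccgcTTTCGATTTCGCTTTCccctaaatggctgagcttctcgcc
B2M, chr15:44711343-44711412, plus strand: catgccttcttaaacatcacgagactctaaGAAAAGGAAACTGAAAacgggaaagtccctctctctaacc

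Upstream of the effectors the picture was divided. Of 32 nucleic acid sensors and interferon signalling genes 22 were measured, 7 2-fold lower (17.5% of all measured genes) and 2 2-fold higher (15.9%), with a median of −0.45 and −0.01 in the second pair. DHX58, the sensor LGP2, had 146 and 133 counts in the plasmid libraries and 8 and 8 in the siRNA libraries, a log2 ratio of −4.30, interval −5.63 to −3.37. The interferon signalling factor IRF9 stood at 68.1 and 50.6 CPM in the plasmid libraries and 16.2 and 18.7 CPM in the siRNA libraries, the RNA sensor RIGI at 238 and 189 CPM in the plasmid libraries and 60.6 and 37.9 CPM in the siRNA libraries, and the transcription factor IRF1 at 45.3 and 37.7 CPM in the plasmid libraries and 11.9 and 10.96 CPM in the siRNA libraries. Their log2 ratios were −1.90, −1.80 and −1.76. All 3 had both siRNA libraries below both plasmid libraries, as had 46.9% of all measured genes. TBK1, the kinase that relays several sensors to IRF3, stood higher at 28.6 and 21.2 CPM in the plasmid libraries and 88.95 and 98.1 CPM in the siRNA libraries. Its log2 ratio was 1.80, interval 1.58 to 2.04, and the receptor chain IFNAR1 lay at 1.14, IRF2 at 0.75 and the DNA sensor CGAS at 0.64.

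NF-kB targets and inflammatory cytokines differed in both directions. Of 34 genes 23 were measured, 7 2-fold lower (17.5% of all measured genes) and 2 2-fold higher (15.9%). In the second pair 6 were lower and 5 higher (20.9% and 19.9% of all genes there). IL7R, a cytokine receptor chain, stood at 129.8 and 153 CPM in the plasmid libraries and 10.8 and 66.2 CPM in the siRNA libraries. Control siRNA was the lowest of the 4 libraries for this gene, with a log2 ratio of −3.42 against −1.07 in the second pair. IL6, the fever cytokine, had 110 and 174 counts in the plasmid libraries and 12 and 58 in the siRNA libraries, and RELB, a subunit of the alternative NF-kB dimer, 214 and 210 counts in the plasmid libraries and 28 and 49 in the siRNA libraries. The adaptor TRAF1 had 38 and 40 counts in the plasmid libraries and 6 and 10 in the siRNA libraries. CCL2, the monocyte chemokine, stood the other way, with 9 and 3 counts in the plasmid libraries and 44 and 20 in the siRNA libraries. These plasmid counts are near the floor of counting, so the size of its difference is uncertain. TNFAIP8, NFKBIA and IER3 lay at 1.03, 0.77 and 0.66. The list median was −0.30, and 0.23 in the second pair.

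Leukocyte markers were read beside these immune genes. Of 11 markers, CD3E, CD163, ITGAM, TYROBP and FCER1G were among those that were unlisted or had at most 3 counts in every library, and LYZ and CD68 were measured. The list summed to 185 and 187 CPM in the plasmid libraries and to 61.9 and 50.9 CPM in the siRNA libraries, most of it CD68, at −1.30. Endothelial markers summed to 155 and 174 CPM and to 30.3 and 15.8 CPM, led by CDH5 at −2.35, with KDR, TEK, TIE1 and CLDN5 at no more than 3 counts. Trophoblast markers summed to 3413 and 3943 CPM and to 1825 and 1425 CPM, most of it ALPP, described further on. Of the 5 measured members 2 lay above 0, and the list median of −0.84 turned to 0.23 with centring. The part of these markers in the immune differences was not tested.

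Genes induced by low oxygen stood higher in control siRNA than in vector. Of 25 hypoxia-induced genes, all measured, 14 were 2-fold higher, against 15.9% of all measured genes, and 0 2-fold lower. The median was 1.25, and 1.29 in the second pair with 15 members 2-fold higher (19.9% of all genes there). In 18 of the 25 both siRNA libraries lay above both plasmid libraries, against 39.6% of all measured genes.

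MXI1, an antagonist of MYC, stood at 14.02 and 16.4 CPM in the plasmid libraries and 67.3 and 75.1 CPM in the siRNA libraries, a log2 ratio of 2.43, interval 2.13 to 2.75. BNIP3L, a receptor that marks mitochondria for removal, stood at 48.9 and 41.5 CPM in the plasmid libraries and 219 and 297 CPM in the siRNA libraries and differed by 2.33, interval 2.17 to 2.50. NDRG1, a stress protein of epithelial cells, stood at 328 and 216 CPM in the plasmid libraries and 1436 and 896 CPM in the siRNA libraries and differed by 2.30, interval 2.24 to 2.36. For each of these 3 genes both siRNA libraries lay above both plasmid libraries, as in 39.6% of all measured genes. STC2, a secreted glycoprotein, differed by 2.30. Others named after their values were seen were the oxygen sensor EGLN3 at 2.04, the mTORC1 inhibitor DDIT4 at 2.02, the mitophagy receptor BNIP3 at 1.60 and the angiogenic factor VEGFA at 1.24.

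Several classical members lay near or below vector. CA9, the cell-surface carbonic anhydrase often used as a hypoxia marker, stood at 108 and 138 CPM in the plasmid libraries and 82.97 and 77.3 CPM in the siRNA libraries. Both siRNA libraries lay below both plasmid libraries, as in 46.9% of all measured genes. The log2 ratio was −0.21, interval −0.36 to −0.07. ANGPTL4, a lipase inhibitor, stood at 41.5 and 29.7 CPM in the plasmid libraries and 21.9 and 15.8 CPM in the siRNA libraries and lay lower, at −0.75, interval −1.02 to −0.49. The histone demethylase KDM4B lay at −0.21, interval −0.46 to 0.04, and the vasodilator peptide gene ADM at −0.15, interval −0.39 to 0.09. With centring by GC content and length, all 4 turned above 0: ANGPTL4 lay at 0.41, CA9 at 0.58, KDM4B at 0.26 and ADM at 0.65. In the second pair ADM lay at 0.36.

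**Figure D3:**
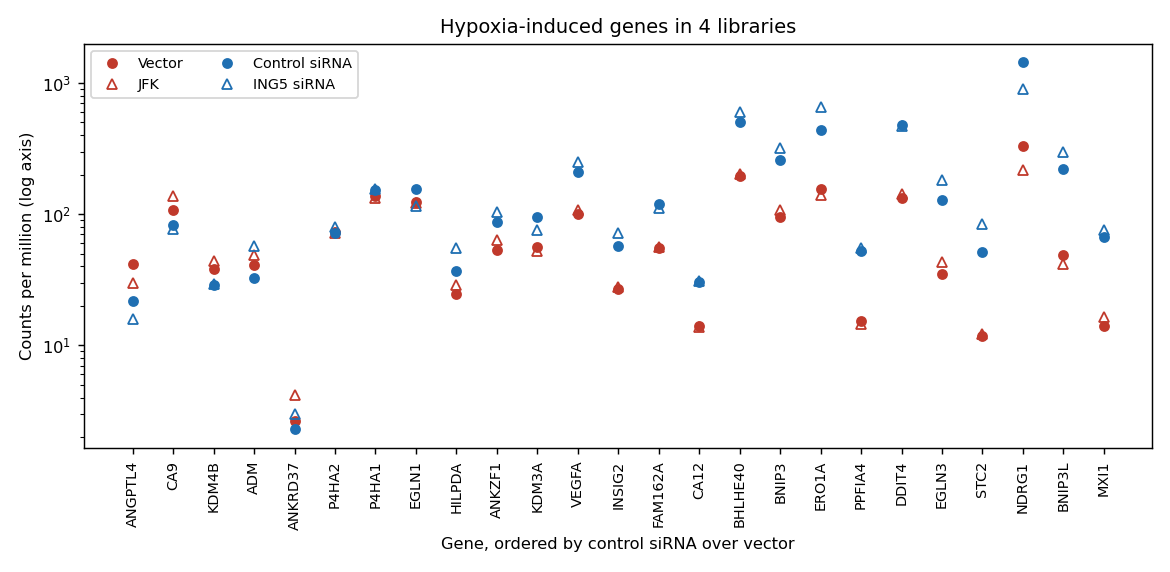
CPM (log axis) of the 25 hypoxia-induced genes in the 4 libraries, 1 point per library, ordered by the log2 ratio of control siRNA over vector. From KDM3A rightward the siRNA libraries lie above the plasmid libraries, and ANGPTL4 and CA9 at the left lie below them.

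The hypoxia response element core, ACGTG on either strand, is short and common: it stood in 2311 of 9674 promoters (23.9%) and in 13 of the 20 hypoxia-induced genes with a promoter (65.0%). Stretches are printed for 3 members far above vector and for CA9, which was not, with the core in capitals and CACGT as its other strand.
DDIT4, chr10:72273769-72273833, plus strand: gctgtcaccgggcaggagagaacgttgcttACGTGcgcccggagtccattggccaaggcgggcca
PPFIA4, chr1:203026342-203026406, plus strand: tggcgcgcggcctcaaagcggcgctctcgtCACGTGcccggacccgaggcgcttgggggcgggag
BNIP3, chr10:131982023-131982087, minus strand: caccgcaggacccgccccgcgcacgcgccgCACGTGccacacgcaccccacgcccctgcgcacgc
CA9, chr9:35673880-35673927, plus strand: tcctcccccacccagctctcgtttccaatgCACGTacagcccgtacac
In PPFIA4 and BNIP3 the 2 strands overlap as CACGTG. Members with the core had a median log2 ratio of 1.25 and those without it 1.29, so the letters did not separate them.

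Glycolysis, a partner program of the hypoxia response, was mixed. All 24 genes were measured, 3 2-fold higher and 3 2-fold lower, where 15.9% and 17.5% of all measured genes were. The median was 0.15, and −0.02 with scaling by total counts. With centring it was 0.45, and 3 members were 2-fold higher (7.87% of all genes then) and 0 lower (12.4%). HK1, a hexokinase of the first step, stood at 24.3 and 27.2 CPM in the plasmid libraries and 90.04 and 124 CPM in the siRNA libraries, a log2 ratio of 2.06, interval 1.82 to 2.31. PDK1, which keeps pyruvate out of mitochondria, lay at 1.75 and lactate dehydrogenase LDHA at 1.40. SLC16A3, the lactate exporter, lay at −1.38, PGAM1 at −1.19 and ALDOA, an aldolase with 53.5% of its exon length overlapping other genes, at −1.04.

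Cholesterol synthesis stood lower. All 26 genes were measured, 9 2-fold lower (17.5% of all measured genes) and 1 2-fold higher (15.9%), with a median of −0.62 and of −0.97 in the second pair. With centring 6 were lower (12.4% of all) and 0 higher (7.87%). TM7SF2, a late sterol reductase, lay at −2.45, interval −2.97 to −1.99. LSS, the enzyme that closes the sterol rings, stood at 321 and 371 CPM in the plasmid libraries and 64.2 and 53.8 CPM in the siRNA libraries. Its log2 ratio was −2.15, and MVD, of the mevalonate branch, lay at −2.06. SC5D, a desaturase near the end of the path, stood apart at 1.37, interval 1.24 to 1.49, with INSIG1 at 0.70. Of 22 measured genes of fatty acid and triglyceride synthesis 8 were 2-fold lower (17.5% of all measured genes) and 3 higher (15.9%). They ranged from ACSS2 at −1.75 to ELOVL6, an elongase, at 1.84. With centring 3 were lower (12.4% of all) and 1 higher (7.87%), and ACSS2 lay at −1.13. Fatty acid oxidation had a median of 0.35, led by the dehydrogenase ACADM at 2.03, with ECI1 lowest at −2.08, or −0.92 with centring.

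Metallothioneins, small proteins that bind zinc and copper, were few but stood low. Of 11 genes of metal handling 5 were measured, and 4 were 2-fold lower (17.5% of all measured genes). MT1E had 108 and 68 counts in the plasmid libraries and 2 and 4 in the siRNA libraries, and MT2A stood at 136 and 97.4 CPM in the plasmid libraries and 20.9 and 29.02 CPM in the siRNA libraries. Their log2 ratios were −5.62, interval −9.02 to −4.06, and −2.53, interval −2.76 to −2.31. MT1X lay at −2.44, and −0.73 in the second pair. The zinc exporter SLC30A1 lay at −1.15. Metallothionein genes are close copies, so their counts are uncertain where counters divide shared reads.

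Mitotic genes stood higher before centring. All 31 G2/M genes were measured, 10 2-fold higher (15.9% of all measured genes) and 0 2-fold lower, with a median of 0.87 and of 0.67 in the second pair. HMMR, a spindle protein, stood at 51.6 and 57.8 CPM in the plasmid libraries and 157 and 139 CPM in the siRNA libraries, a log2 ratio of 1.77, interval 1.61 to 1.94. ASPM and CENPF, of the spindle pole and the kinetochore, lay at 1.58 and 1.49, and topoisomerase TOP2A at 1.56. CDC20, the activator of the anaphase ligase, lay on the other side at −0.59, interval −0.77 to −0.42, with PLK1 at −0.22. Both turned above 0 with centring by GC content and length, to 0.20 and 0.23. The median of 35 DNA replication genes was 0.22, with 2 members 2-fold higher and 3 lower, such as CDT1 at −1.52 and E2F1 at −1.31. Both shares lay below the 15.9% and 17.5% of all measured genes. Of 48 histone genes 8 were measured, 4 2-fold lower (17.5% of all measured genes) and 0 higher (15.9%), with a median of −0.78. With centring the histone median was −0.35, and 3 histone genes were lower (12.4% of all genes). With centring by GC content and length the G2/M median was 0.40, and 2 of the 31 members were 2-fold higher, against 7.87% of all genes then.

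Splicing and nuclear speckle proteins and the nuclear long non-coding RNAs held some of the highest ratios. Of 31 splicing genes, all measured, 13 were 2-fold higher (15.9% of all measured genes) and 1 lower (17.5%), with a median of 0.85 and of 0.64 in the second pair. PNISR, a speckle protein, stood at 52.3 and 39.6 CPM in the plasmid libraries and 268 and 335 CPM in the siRNA libraries and LUC7L3, a U1-associated protein, at 149 and 125 CPM in the plasmid libraries and 723 and 902 CPM in the siRNA libraries. Their log2 ratios were 2.52, interval 2.37 to 2.69, and 2.44, interval 2.35 to 2.54. The kinases CLK1 and CLK4, which phosphorylate splicing factors, lay at 1.94 and 1.78, while HNRNPA1, a repressor of splice sites, lay at −1.22, interval −1.28 to −1.16. The list's genes are low in GC, with a median of 40.7% against 48.1% for all measured genes, and after centring its median was 0.23, with 6 members 2-fold higher (7.87% of all genes).

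MALAT1, a speckle RNA, stood at 83.4 and 61.9 CPM in the plasmid libraries and 1277 and 1402 CPM in the siRNA libraries. NEAT1, the scaffold of paraspeckles, stood at 751 and 575 CPM in the plasmid libraries and 6195 and 5784 CPM in the siRNA libraries. Both were many times higher in the siRNA libraries, with log2 ratios of 4.11, interval 3.99 to 4.23, and 3.21, interval 3.17 to 3.26. H19, an imprinted fetal RNA, stood at 3747 and 3901 CPM in the plasmid libraries and 11423 and 12887 CPM in the siRNA libraries, a log2 ratio of 1.78, interval 1.76 to 1.80 that centring raised to 2.84. The host genes MIR17HG and MIR100HG and the RNA LINC00997 completed the 5 non-coding genes farthest above vector, at 2.68, 2.68 and 2.60. Non-coding genes as a class did not stand higher. Of 24 measured abundant long non-coding RNAs and snoRNA hosts 6 were 2-fold higher (15.9% of all measured genes) and 5 lower (17.5%). The lowest lay at −6.04, and the list median of 0.23 became −0.01 with centring. Of 479 measured long non-coding RNA genes 175 (36.5%) were 2-fold lower and 56 (11.7%) higher.

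Of 24 measured genes of the immediate early response 5 were 2-fold lower and 3 higher, shares near the 17.5% and 15.9% of all measured genes. Single transcription factors among them lay far apart. KLF4 stood at 57.9 and 51.2 CPM in the plasmid libraries and 7.61 and 6.98 CPM in the siRNA libraries, a log2 ratio of −2.75, interval −3.14 to −2.39, and the nuclear receptor NR4A1 lay at −2.06. EGR1 had 27 and 32 counts in the plasmid libraries and 185 and 171 in the siRNA libraries, a log2 ratio of 2.56, interval 1.99 to 3.22. MYC, a general growth regulator, stood at 119.9 and 133 CPM in the plasmid libraries and 300.2 and 331 CPM in the siRNA libraries and differed by 1.49, interval 1.38 to 1.61, and JUN lay at 1.12. The siRNA and plasmid libraries did not overlap for any of these 5. Of all measured genes, 39.6% had both siRNA libraries above both plasmid libraries and 46.9% below. Among p53 targets 6 of 25 were 2-fold lower (17.5% of all measured genes), with GDF15, PHLDA3 and CDKN1A at −2.08, −2.08 and −1.12. The 3 higher ones (15.9%) were ZMAT3, CCNG1 and BTG2, at 2.82, 1.72 and 1.61. With centring 2 were lower (12.4% of all genes) and 3 higher (7.87%). GDF15, PHLDA3 and CDKN1A then lay at −0.92, −1.34 and −0.38.

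Since 1 of the reagents is an siRNA, the RNA interference machinery was read as well. All 16 genes were measured, 4 2-fold higher (15.9% of all measured genes) and 1 lower (17.5%), with a median of 0.32 and of 0.35 in the second pair. DICER1, which cuts double-stranded RNA, lay at 1.36, interval 1.20 to 1.53, and DROSHA, which cuts primary microRNA, at 1.30, interval 1.21 to 1.39. TNRC6A and TNRC6B, the scaffolds that join Argonaute to deadenylases, lay at 1.05 and 1.12. TARBP2, the partner of Dicer, lay at −1.50, interval −1.82 to −1.19. With centring, the list median was 0.09, and 0 members were 2-fold higher (7.87% of all genes) and 1 lower (12.4%).

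Families of protein synthesis and folding held members on both sides. Of 20 tRNA synthetases, all measured, 6 were 2-fold higher (15.9% of all measured genes), among them EPRS1 at 1.67, and 1 was lower (17.5%). That 1 was WARS1, which is also interferon-induced, at −1.68, interval −1.76 to −1.61. With centring 3 synthetases were higher (7.87% of all genes). Of 21 measured heat shock chaperones 3 were 2-fold higher and 3 lower, near the 15.9% and 17.5% of all measured genes. HSPA9, HSP90AA1 and DNAJB4 lay at 1.36, 1.32 and 1.45, whereas the inducible copies HSPA1A and HSPA1B lay at −1.82 and −2.06. HSPA1A and HSPA1B are close copies, so their counts are uncertain where counters divide shared reads. The 79 cytosolic ribosomal protein genes had a median of −0.18, with 6 2-fold higher and 10 lower, both shares below those of all measured genes. RPS10 stood lowest at −2.995, and 39.4% of its exon length overlaps other genes. RPS24 lay at 1.42 by counts and at −0.75 by the ratio of RPKM to FPKM, and the 2 tables give it different gene lengths. Nuclear-encoded respiratory chain subunits had a median of −0.26, with 16 of 76 2-fold lower, near the 17.5% of all measured genes. With centring it was 7 of 76, against 12.4% of all genes.

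Cell identity genes were compared because the controls carry 1 label. Of 18 keratin genes 9 were measured, with 5 2-fold lower (17.5% of all measured genes) and 0 higher and a median of −1.06. With centring 3 were lower (12.4% of all genes) and the median was −0.32. KRT17, a basal keratin, stood at 2943 and 3839 CPM in the plasmid libraries and 294 and 255 CPM in the siRNA libraries, a log2 ratio of −3.15, interval −3.21 to −3.10, and KRT7 lay at −1.61 and KRT8 at −0.81. The 13 markers of breast carcinoma lines, KRT17 among them, summed to 3872 and 4829 CPM in the plasmid libraries and to 648 and 565 CPM in the siRNA libraries, with KRT5, PGR and TFF3 unlisted or at no more than 3 counts. ALPP, the placental alkaline phosphatase, stood at 3203 and 3730.3 CPM in the plasmid libraries and 1591 and 1202 CPM in the siRNA libraries. Both siRNA libraries lay below both plasmid libraries, as in 46.9% of all measured genes. The log2 ratio of ALPP, −0.84, interval −0.87 to −0.81, turned to 0.23 with centring. CPS1, the entry enzyme of the urea cycle, stood at 3176 and 3098 CPM in the plasmid libraries and 5086 and 4576 CPM in the siRNA libraries, a log2 ratio of 0.85, interval 0.83 to 0.87. VTN stood at 302 and 362 CPM in the plasmid libraries and 40.9 and 54.2 CPM in the siRNA libraries and differed by −2.71, interval −2.88 to −2.56. Of 11 measured hepatocyte transcription factors 2 were 2-fold lower, near the 17.5% of all measured genes. These were ONECUT2 at −1.37 and RXRA at −1.03, and HNF4A lay at 0.36, interval −0.17 to 0.90. The list median of −0.29 turned to 0.19 with centring, and 1 member was then lower (12.4% of all genes). LOX, which crosslinks collagen, stood at 28.9 and 30.4 CPM in the plasmid libraries and 214 and 234 CPM in the siRNA libraries. It had the highest log2 ratio among 14 measured mesenchymal genes, 3.05, interval 2.85 to 3.27, and ZEB1 lay at 1.51, while FN1, for fibronectin, lay at −1.27. The 11 fibroblast markers summed to 83.0 and 88.0 CPM and to 103 and 106 CPM, with COL1A2, PDGFRA, POSTN and THY1 unlisted or at no more than 3 counts. The part of these markers in the differences was not tested.

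Single genes outside the lists showed the extremes. RANBP3L, a nuclear export factor for SMAD proteins, had 3 and 4 counts in the plasmid libraries and 439 and 346 in the siRNA libraries, a log2 ratio of 6.79, interval 5.44 to 9.28, the highest of any protein-coding gene by this rule. PSIP1, a chromatin reader, stood at 76.5 and 75.1 CPM in the plasmid libraries and 455 and 573 CPM in the siRNA libraries and differed by 2.74, interval 2.61 to 2.87. DENND4A, an activator of RAB proteins, differed by 2.89, the mitochondrial carrier SLC25A27 by 3.32 and the phospholipase PLD1 by 2.67. Beyond IFI27 and IFI6, the genes farthest below vector included ATP6V1C2, a proton pump subunit, at 266 and 253 CPM in the plasmid libraries and 2.39 and 2.88 CPM in the siRNA libraries. It differed by −6.59, interval −7.30 to −6.02. DHRS2, a mitochondrial reductase, stood at 192 and 219 CPM in the plasmid libraries and 4.57 and 8.64 CPM in the siRNA libraries, and PLAAT2, a phospholipase, had 301 and 323 counts in the plasmid libraries and 4 and 3 in the siRNA libraries. SLC15A3, a lysosomal histidine transporter, had 153 and 142 counts in the plasmid libraries and 1 and 4 in the siRNA libraries. The 15 highest and 15 lowest protein-coding genes by this rule had the same sign in the second pair. So had 91.3% of all genes, 1898 of the 1905 genes 2-fold higher and 2098 of the 2108 lower ones.

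Base composition ran along the difference. Measured genes were put in 10 bins of equal size by transcript GC content. In the lowest bin the median log2 ratio was 0.83, and 41.0% of genes were 2-fold higher and 3.46% lower. In the highest bin it was −0.95, with 0.845% higher and 47.0% lower. Across the 11833 genes with a known GC content Pearson's r was −0.46, and −0.50 in the second pair, as a description over genes, which are not independent replicates. Between ING5 siRNA and control siRNA r was 0.0025, and between the library labelled JFK and vector 0.40. Of 5 length bins, the shortest transcripts had a median of −0.39 and the longest 0.46. The part of GC content and length in the differences between lists was not tested, but each gene can be centred on the median of the genes that share its GC and length bins. After that, 931 genes were 2-fold higher (7.87%) and 1463 lower (12.4%). The medians became −1.97 for interferon-stimulated effectors, −1.72 for MHC class I, 0.93 for hypoxia-induced genes and −0.64 for cholesterol synthesis.

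**Figure D4:**
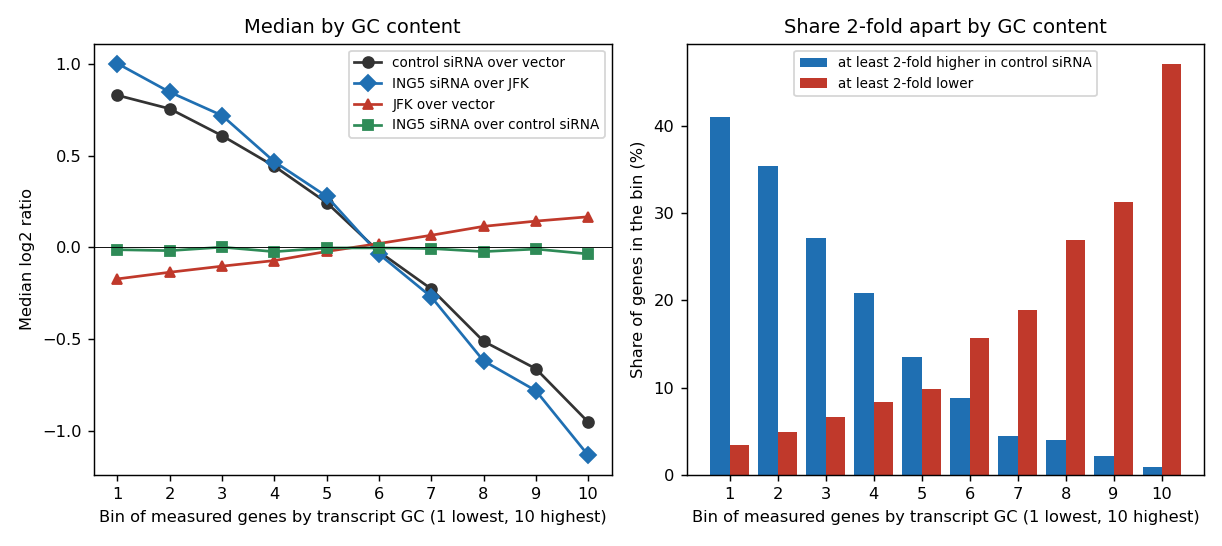
Left, median log2 ratio of measured genes in 10 bins of transcript GC content for the 4 comparisons between libraries. Right, share of genes in each bin 2-fold higher or lower in control siRNA than in vector. The median runs from 0.83 in the lowest bin to −0.95 in the highest, and the comparison of the 2 siRNA libraries is flat.

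Genes at loci with an annotated readthrough transcript were 2-fold lower in 114 of 224 cases (50.9%), against 16.6% of other genes, and 8-fold lower in 27.7% against 2.14%. Where at least 50% of the exon length overlapped another gene 44.3% were 2-fold lower, against 14.3% where under 10% did. Of the measured genes 68.8% had a whole expected count in vector, and of those 2-fold lower 59.8%. A count of 0 in control siRNA occurred for 23 measured genes and in vector for 0. The readthrough gene NME1-NME2 had 1685 and 1920.4 counts in the plasmid libraries and 0 and 2 in the siRNA libraries, at least 644-fold lower in control siRNA taking 3 counts there. LINC02067 had 1048 and 1038 counts in the plasmid libraries and 0 and 1 in the siRNA libraries and CBR3-AS1 838 and 940 counts in the plasmid libraries and 0 and 4 in the siRNA libraries, at least 400.4-fold and 320.2-fold lower by the same floor. Among the lowest protein-coding genes AARSD1, PAM16 and RAB5IF lie at readthrough loci, with log2 ratios of −6.33 for PAM16 and −4.91 for RAB5IF. AARSD1 was at least 85.2-fold lower. These genes are reported as uncertain. Overlap of at least 10% or a readthrough locus held for 6 of 34 interferon-stimulated effectors and 4 of 25 hypoxia-induced genes. Among MHC class I genes it held for 8 of 20. Leaving such genes out kept 9472 of all 12012 measured genes. The medians of the 3 lists were then −1.69, 1.29 and −1.33.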

How the data were processed

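Total RNA of 4 libraries was sequenced on an Illumina HiSeq 2500, per the labels. FastQC, fastp, STAR and DESeq2 are named with the builds GRCh37 and hg19 per the submitters' processing notes; no source used here gives their versions and roles or the read counter. The authors deposited expected counts with FPKM for the plasmid libraries and whole counts with RPKM for the siRNA libraries, per the file headers. Expected counts were rounded for intervals only.

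Computation used Python 3.11.15, numpy 2.4.6, pandas 2.3.3, scipy 1.17.1 and matplotlib 3.10.9. TMM (log-ratio trim 0.3, intensity trim 0.05) scaled the counts, 0.5 was added, and genes with a mean of 20 or more were measured. Identifiers listed more than once (2, NADK2 and SMG1P3) were left out, and IL32 has no count in the JFK table, so it has no ratio in the second pair. Symbols came from RefSeq for 11978 of 12012 Entrez identifiers; 34 were unmatched. GC content, length and overlap came from the longest GENCODE transcript, known for 98.5% of measured genes, an annotation that need not be the authors'. The method was run on simulated data with counting error alone, drawn from a shared profile in which some genes were changed. That simulation held no GC trend and no difference between counters, so it cannot speak to either.

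The members and the 50 gene lists, with 1239 genes, were chosen with earlier results of these data known. Named genes are FBXO42, ING5, ING4, H19, CPS1, ALPP and KRT17, the 15 higher and 15 lower protein-coding genes farthest from 1-fold by interval bound, with whole vector counts and the same call by RPKM ratio, 5 non-coding genes each way, up to 4 highest and 4 lowest members per list, genes at 0, and up to 5 genes whose direction differs by unit. Some of these are not reported here, and other names were chosen after their values were seen. Alternatives were median-of-ratios and total-count scaling, an added count of 5, a mean of at least 100 or no filter, RPKM over FPKM centred on its median, whole vector counts, genes whose units match within 10%, protein-coding genes, genes of either table and the second pair. Centring by GC and length, and leaving out overlapping or readthrough genes, were chosen after seeing the data.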

Additional observations from a re-analysis of the deposited data

Results flagged for a closer look

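The medians of 2 gene lists lay on opposite sides of 0 in the 2 pairs. NF-kB targets had a median of −0.297 for control siRNA over vector and of 0.23 for ING5 siRNA over the library labelled JFK. Mesenchymal transition genes had a median of 0.188 in the first pair and of −0.37 in the second. The tyrosine-breakdown gene HPD had a log2 ratio of 1.26 in the first pair and of −0.39 in the second, with 156 and 195 counts in the plasmid libraries and 429 and 170 in the siRNA libraries. None of these differences was tested.

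Genes found in the tables of 1 reagent stood outside the comparison: 1105 were listed in vector and not in control siRNA, and 953 the other way. With at least 20 counts, 97 were listed only in the plasmid tables and 1 only in the siRNA tables. The 97 include the ribosomal RNA genes RNA28SN5 and RNA18SN5, with 17283 and 7998 expected counts in vector, the duplicated gene BOLA2B and readthrough genes such as BCL2L2-PABPN1. The 1 in the siRNA tables was the phosphatase gene PTPRD, with 27 counts in control siRNA. These genes were chosen after their values were seen.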

How the results depend on the processing

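The count of genes 2-fold higher, 1905, stayed within 1.5 times under every setting run except centring by GC content and length, added after seeing the data, which gave 931. The count of genes 2-fold lower, 2108, was 1297 with a mean of at least 100, 3495 with no filter, 1260 with whole vector counts only and 1389 without overlapping or readthrough genes, the last also added after seeing the data. Fewer genes were measured under 3 of these 4 settings and more with no filter. With median-of-ratios scaling the counts were 2037 and 2003, and with total counts 1370 and 2575.

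Among the genes named whose interval lay clear of 0, 6 changed sign with centring by GC content and length: ALPP at 0.23, ANGPTL4 at 0.41, CA9 at 0.58, CDC20 at 0.20, EIF2AK2 at −0.38 and PLK1 at 0.23. In the ratio of RPKM to FPKM, RPS24 lay at −0.75, and in the second pair HPD lay at −0.39. The cause was not tested. The medians for interferon-stimulated effectors, MHC class I, hypoxia-induced genes and cholesterol synthesis kept their sign under every setting run. Centring moved the median of splicing genes to 0.23 and that of keratins to −0.32.

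No paired analysis was possible because each group held 1 library, so no replicate numbers are shared between groups. No library was left out, since its group would then hold none. Depth limits genes near the minimum mean of 20, where counting intervals are wide.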

Other observations

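Growth factor ligands of the EGF receptor stood on opposite sides. Of 10 measured genes, EREG stood at 26.8 and 23.00 CPM in the plasmid libraries and 113 and 207 CPM in the siRNA libraries, a log2 ratio of 2.24, interval 2.02 to 2.47. AREG and EPGN, ligands of the same receptor, lay at −2.01 and −2.43, with 131 and 148 counts in the plasmid libraries and 37 and 37 in the siRNA libraries for AREG. The receptor EGFR lay at 0.999 and ERBB2 at −1.55. Matrix genes were likewise divided, from the basement membrane laminin LAMA1 at −1.67 to the fibrillar collagens COL3A1 at 1.96 and COL5A2 at 1.99. COL12A1, a collagen that coats fibrils, stood at 572 and 591 CPM in the plasmid libraries and 1637 and 1847 CPM in the siRNA libraries. Its siRNA libraries lay above its plasmid libraries, as in 39.6% of all measured genes, with a log2 ratio of 1.69, interval 1.64 to 1.74.

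Complement, secretory and amino acid genes held further large values. CFB, the complement protease precursor, stood at 208 and 213 CPM in the plasmid libraries and 29.03 and 39.2 CPM in the siRNA libraries, a log2 ratio of −2.67, interval −2.86 to −2.48, and CFD, the protease that cuts it, lay at −2.51. PROS1, the anticoagulant protein S, lay on the other side at 2.07, interval 1.81 to 2.36. SDF2L1, an endoplasmic reticulum chaperone partner, had 337 and 419 counts in the plasmid libraries and 33 and 45 in the siRNA libraries, a log2 ratio of −3.53, interval −4.11 to −3.03, while the median of its 23-gene list was 0.03 and turned to −0.14 with scaling by total counts. CBS, which makes cystathionine, lay at 2.17, interval 1.83 to 2.54, and SLC3A2, a chain of amino acid transporters, at −1.66, interval −1.74 to −1.58.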
